A study of Rattus norvegicus with 12 samples.

Results

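Transglutaminases join proteins by bonds between glutamine and lysine side chains, and the expression of the genes Tgm1, Tgm2 and Tgm3 of this enzyme family was examined together with that of Asprv1, an aspartic protease of differentiating keratinocytes. Members were the probe sets to which the platform annotation gives 1 of these 4 gene symbols. There were 5 such probe sets of 31042 tested, 2 for Tgm2 and 1 for each other gene, and all 4 genes of 14217 were measured. No filter on dim signal was used, so none of the 5 was left out.

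The tissue was rat esophageal epithelium, prepared by stripping the submucosa and muscle from a part of the esophagus. Rats of all groups received subcutaneous injections of 0.2 ml, 3 times per week for 5 weeks. The 9 NMBA arrays came from rats given 0.3 mg of N-nitrosomethylbenzylamine per kg body weight, a carcinogen for esophageal squamous cells in rats, and the 3 control arrays from rats given the solvent of dimethyl sulfoxide and water at 1:4. Each of the 4 groups had 3 arrays: control, NMBA week 6 (early stage of tumor development, per the labels), NMBA week 15 (middle stage) and NMBA week 29 (late stage). The strain, the age, the week of the controls and whether weeks run from the first or the last injection were not given. The same controls served all NMBA weeks. The effects of NMBA, of age and of time therefore cannot be told apart, against control or between weeks. Since no label says that each array is a separate rat, the p-values speak for the spread among these samples, which may be technical.

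The inner lining of the rat esophagus is a keratinizing squamous epithelium. Its uppermost cells replace their membrane by a cornified envelope, a shell of proteins such as loricrin, involucrin, envoplakin and the small proline-rich proteins that transglutaminases weld together. Tgm1, which is anchored to membranes, and Tgm3, which is cytosolic and activated by cleavage, are the cornification enzymes of this family. Asprv1 cuts profilaggrin in mouse and human epidermis. Tgm2, tissue transglutaminase, is found in many cell types, among them endothelial cells and fibroblasts, where it crosslinks matrix proteins and binds fibronectin.

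Across the 4 groups the 3 cornification genes followed one order and Tgm2 another. Tgm1, Tgm3 and Asprv1 each had their highest mean at week 15, then control, then week 6, and their lowest mean at week 29. Weeks 6 and 29 did not differ at an adjusted p under 0.05 for any of the 3. The mean signals of the basal and suprabasal keratinocyte markers and of the envelope proteins described below had this order too. Between weeks 6 and 15 the 3 rose by 2.17, 1.52 and 1.63 on the log2 scale, as did 20.3% of all probe sets at an adjusted p under 0.05. Between weeks 15 and 29 they fell by 2.96, 1.74 and 2.22, as did 18.3% of all probe sets. Tgm2 had its highest mean in controls. In the moderated F test of limma over all 4 groups, Tgm1 (adjusted p = 0.000208), Tgm3 (0.00444), Asprv1 (0.00168) and the main Tgm2 probe set (0.0225) passed, as did 35.1% of all probe sets, and the other Tgm2 probe set did not (0.554). For Tgm2 this call was lost without control replicate 1 (adjusted p = 0.0922) or control replicate 3 (0.0751).

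The sequences upstream of the 3 cornification genes are shown because these genes shared an order of group means, which is not particular to them. They are RefSeq promoter windows of build GRCr8, with 250 bases before and 50 after the start that the table gives for the gene (for Tgm1 a start inside the annotated gene), written 5′ to 3′ on the strand of the gene. Of the 4 genes, 3 matched the promoter table. Capitals mark every match, on either strand, to 5 short motifs, which are the AP-1 motif TGANTCA, the KLF family motif CACCC, the core promoter motif TATAAA, the C/EBP motif TTGCNNAA and the Grainyhead-like motif AACNNGTT. No 2 of the marked matches overlap.
Tgm1: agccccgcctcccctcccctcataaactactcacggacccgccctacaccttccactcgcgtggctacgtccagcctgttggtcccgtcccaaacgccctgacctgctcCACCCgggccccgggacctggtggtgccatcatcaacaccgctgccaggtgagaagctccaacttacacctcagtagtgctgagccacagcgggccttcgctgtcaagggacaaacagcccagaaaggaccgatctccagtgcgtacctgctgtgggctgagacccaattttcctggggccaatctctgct
Tgm3: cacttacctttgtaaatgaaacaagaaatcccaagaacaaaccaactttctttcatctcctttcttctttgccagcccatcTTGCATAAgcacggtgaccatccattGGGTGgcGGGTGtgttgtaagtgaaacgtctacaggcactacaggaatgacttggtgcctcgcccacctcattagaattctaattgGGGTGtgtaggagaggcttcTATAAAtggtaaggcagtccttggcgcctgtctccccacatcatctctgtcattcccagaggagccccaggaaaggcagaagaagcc
Asprv1: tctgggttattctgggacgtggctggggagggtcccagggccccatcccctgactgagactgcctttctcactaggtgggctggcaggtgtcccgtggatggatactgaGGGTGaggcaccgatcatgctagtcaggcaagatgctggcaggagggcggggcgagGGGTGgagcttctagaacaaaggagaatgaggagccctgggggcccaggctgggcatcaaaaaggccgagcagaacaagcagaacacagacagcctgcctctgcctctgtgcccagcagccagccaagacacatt
The Tgm1 window is chr15:33174218-33174517 on the minus strand, the Tgm3 window chr3:137681559-137681858 on the plus strand and the Asprv1 window chr4:120634543-120634842 on the plus strand.

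The motif that all 3 windows hold is CACCC, read on the opposite strand as GGGTG. It occurred at 1 place in Tgm1, at 3 in Tgm3 and at 2 in Asprv1, and 54.9% of all 33469 promoter windows of this length hold it. The Tgm3 window also holds TATAAA, at positions -37 to -32 from the start, which 14.2% of windows hold, and TTGCNNAA, which 10.6% hold. TGANTCA (7.33% of windows) and AACNNGTT (4.23%) are not among the letters of these 3 windows. A match is a description of the letters and does not show that a factor binds there.

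Tgm1 gave log2 signals of 8.50, 8.65 and 8.14 in control replicates 1, 2 and 3 and of 6.96, 6.77 and 7.67 at week 6. At week 15 its signals were 8.45, 9.87 and 9.59, and at week 29 they were 6.57, 6.29 and 6.18. Every week 6 and every week 29 array lay below every control. At week 15 replicates 2 and 3 lay above every control, and replicate 1 lay inside the control range.

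Tgm1 fell by 2.09 ± 0.32 (SE, n = 3 per group) between control and week 29 on the log2 scale, 4.25-fold, with an adjusted p = 0.00694 in limma. It was the cornification gene with the largest fitted fall, from 8.43 ± 0.26 (SD, n = 3) to 6.35 ± 0.20. The call at week 29 held when any 1 of the 12 arrays was left out, with values from -2.23 to -1.98. At week 6 Tgm1 was lower by a log2 fold change of -1.30 ± 0.32, 2.46-fold (adjusted p = 0.0349). That call was lost without control replicate 1 (-1.27), 2 (-1.19) or 3 (-1.45), without week 6 replicate 1 (-1.22), 2 (-1.12) or 3 (-1.57), and without week 29 replicate 2 (-1.30), with adjusted p between 0.0526 and 0.112.

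At week 15 the Tgm1 mean was 9.30 ± 0.75, and the difference from control of 0.87 ± 0.32 did not pass (adjusted p = 0.118, 95% interval 0.17 to 1.57 before adjustment). Without week 15 replicate 1 it was 1.30 and passed (adjusted p = 0.0165). Between NMBA weeks the differences were larger. Tgm1 rose 4.50-fold from week 6 to week 15 (log2 fold change 2.17 ± 0.32, adjusted p = 0.000353) and fell 7.77-fold from week 15 to week 29 (-2.96 ± 0.32, adjusted p = 7.02e-05). Week 29 arrays lay below every week 6 array, but this difference of -0.79 ± 0.32 did not pass (adjusted p = 0.465).

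Tgm3 gave log2 signals of 11.30, 10.08 and 11.002 in controls, 10.33, 10.10 and 10.60 at week 6, 11.22, 12.19 and 12.17 at week 15, and 10.49, 10.02 and 9.84 at week 29. The controls were spread over more than 1 log2 unit, with replicate 2 the lowest, and they overlapped with each NMBA group. Week 15 arrays lay above every week 6 and every week 29 array.

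No comparison of Tgm3 with control passed. Week 6 gave a log2 difference of -0.45 ± 0.32 (SE, n = 3 per group, limma's adjusted p = 0.409), week 15 one of 1.07 ± 0.32 (adjusted p = 0.0612) and week 29 one of -0.68 ± 0.32 (adjusted p = 0.165). The 95% intervals, -1.14 to 0.25, 0.37 to 1.76 and -1.37 to 0.02, leave room for changes of 2-fold. Single arrays decided these calls. The week 15 difference passed without week 15 replicate 1 (1.39, adjusted p = 0.0283) or without control replicate 1 (1.32, adjusted p = 0.0447), and the week 29 difference passed without control replicate 2 (-1.03, adjusted p = 0.0351). From week 6 to week 15 Tgm3 rose 2.86-fold (log2 fold change 1.52 ± 0.32, adjusted p = 0.00316), and from week 15 to week 29 it fell 3.35-fold (-1.74 ± 0.32, adjusted p = 0.00119). Weeks 29 and 6 differed by -0.23 ± 0.32 (adjusted p = 0.86).

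Asprv1 gave log2 signals of 9.20, 8.59 and 8.37 in controls, 8.29, 8.07 and 8.55 at week 6, 8.99, 10.60 and 10.20 at week 15, and 7.88, 7.73 and 7.50 at week 29. Week 29 arrays lay below all others. As for Tgm1 and Tgm3, week 15 replicate 1 lay within the control range while replicates 2 and 3 lay above it.

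Asprv1 was the 1 cornification gene of 3 that was called higher at week 15 than in controls, 2.31-fold, with a log2 fold change of 1.21 ± 0.34 (SE, n = 3 per group) and limma's adjusted p = 0.0468, against 1.7% of all probe sets called higher. The call was lost when any 1 of 10 of the 12 arrays was left out, with adjusted p between 0.0533 and 0.142 and values from 0.87 to 1.21. It was kept without control replicate 1 (1.45) or week 15 replicate 1 (1.68). At week 6 Asprv1 was at -0.42 ± 0.34 (adjusted p = 0.466). At week 29 it was at -1.01 ± 0.34 (adjusted p = 0.059), and this passed without week 15 replicate 1 (adjusted p = 0.0163), without week 15 replicate 2 (0.0334) and in a fit without the 3 week 15 arrays (0.0108), at an unchanged -1.01. Between weeks 6 and 15 Asprv1 rose 3.09-fold (1.63 ± 0.34, adjusted p = 0.00271), and between weeks 15 and 29 it fell 4.67-fold (-2.22 ± 0.34, adjusted p = 0.000351). Weeks 29 and 6 differed by -0.59 ± 0.34 (adjusted p = 0.596).

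**Figure D1:**
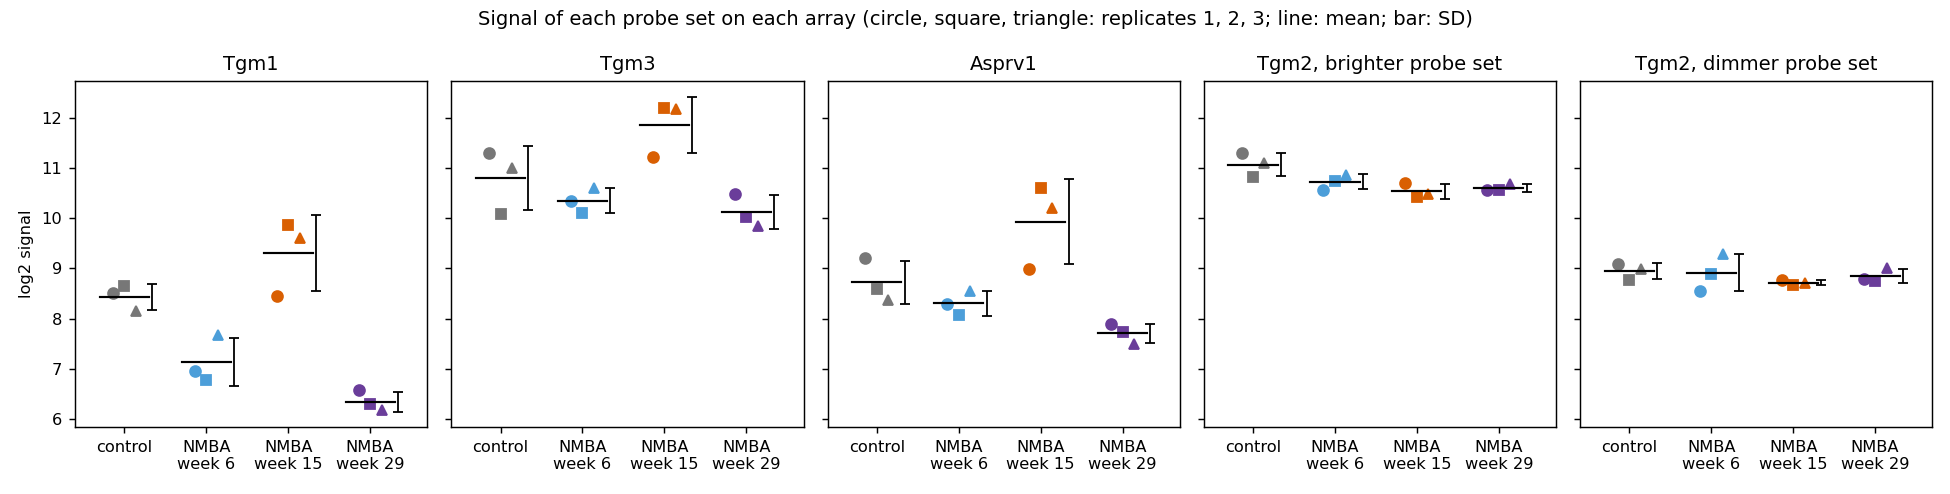
Log2 signal (vertical axis) of the 5 probe sets on each of the 12 arrays, by group (horizontal axis), with symbols for replicates 1, 2 and 3, a line at the group mean and a bar of 1 SD. Tgm1, Tgm3 and Asprv1 had their highest means at week 15, with replicate 1 below the other 2, and their lowest means at week 29, while the 2 Tgm2 probe sets spanned 0.87 and 0.73 log2 units over all arrays.

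The main Tgm2 probe set, the one with the higher mean, gave log2 signals of 11.29, 10.82 and 11.09 in controls, 10.56, 10.75 and 10.86 at week 6, 10.70, 10.42 and 10.48 at week 15, and 10.56, 10.55 and 10.68 at week 29. All arrays of weeks 15 and 29 lay below the lowest control, and week 6 replicate 3 overlapped with the controls. The whole range over the 12 arrays was 0.87, against 3.69 for Tgm1, 2.35 for Tgm3 and 3.10 for Asprv1.

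Tgm2 by this probe set fell by 0.53 ± 0.13 at week 15 (SE, n = 3 per group, 1.45-fold, adjusted p = 0.0279 in limma) and by 0.47 ± 0.13 at week 29 (1.38-fold, adjusted p = 0.0332), and was at -0.34 ± 0.13 at week 6 (adjusted p = 0.114). The week 15 call was lost in the absence of control replicate 1 (-0.42) or 3 (-0.52), or of week 15 replicate 2 (-0.47) or 3 (-0.51). The week 29 call was lost in the absence of control replicate 1 (-0.36) or 3 (-0.46), or of week 29 replicate 1 (-0.45), 2 (-0.44) or 3 (-0.51). The 3 NMBA weeks followed each other closely, at 10.72 ± 0.15, 10.53 ± 0.15 and 10.60 ± 0.07, and no difference among them passed (adjusted p = 0.264, 0.739 and 0.789).

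The other Tgm2 probe set did not pass in any comparison. Its log2 signals were 9.09, 8.78 and 8.99 in controls, 8.56, 8.89 and 9.29 at week 6, 8.76, 8.67 and 8.70 at week 15, and 8.78, 8.75 and 9.01 at week 29. It was at -0.24 ± 0.16 at week 15 (adjusted p = 0.361) and at -0.11 ± 0.16 at week 29 (adjusted p = 0.673). Both probe sets had the same sign against control in all 3 NMBA weeks, the other one with the smaller change, and the Tgm2 calls rest on the main one.

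**Figure D2:**
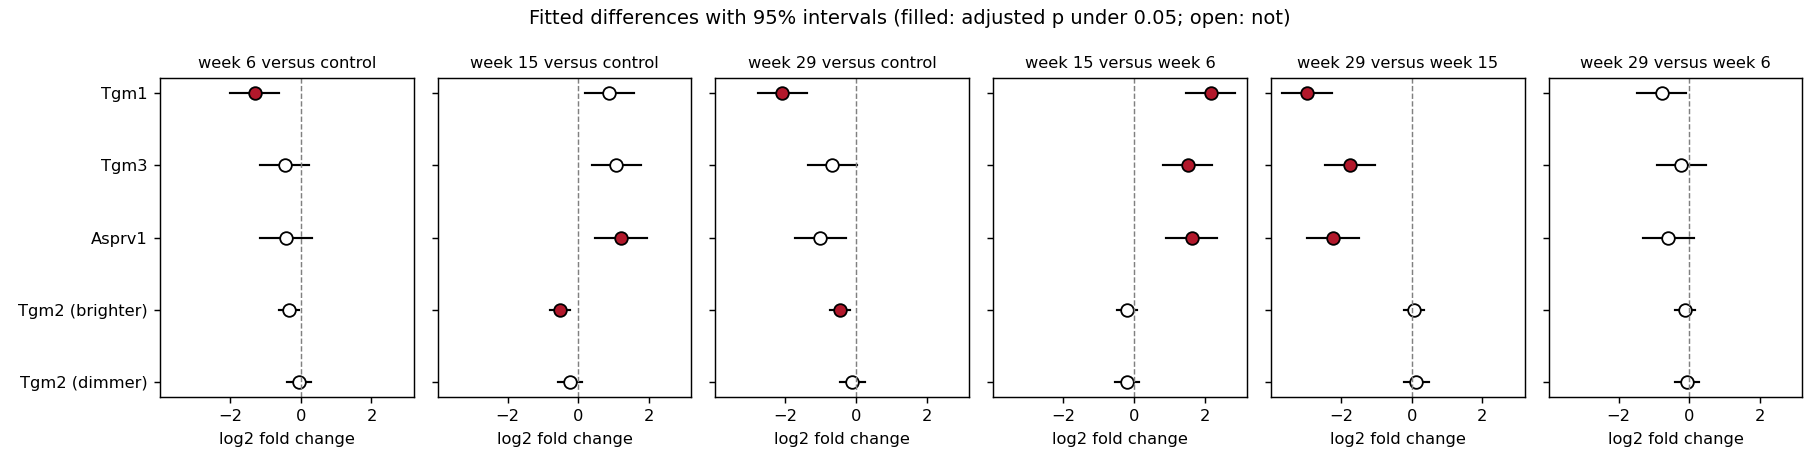
Log2 fold change (horizontal axis) of each of the 5 probe sets in the 6 comparisons, with 95% intervals from limma, filled where the adjusted p was under 0.05. The 3 cornification genes were called between weeks 6 and 15 and between weeks 15 and 29, and none of the 5 was called between weeks 6 and 29.

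The counts for the 4 genes were read against all 14217 genes, each by its main probe set, and against all probe sets, called in the same direction. At week 6, 1 of 4 genes was lower (Tgm1), against 3.76% of genes and 2.44% of probe sets. At week 15, 1 was higher (Asprv1), against 1.54% of genes and 1.7% of probe sets, and 1 was lower (Tgm2), against 8.38% and 6.21%. At week 29, 2 were lower (Tgm1 and Tgm2), against 10.8% of genes and 7.44% of probe sets. From week 6 to week 15, 3 of 4 genes rose, against 22.7% of genes and 20.3% of probe sets, and from week 15 to week 29 the same 3 fell, against 22.4% and 18.3%. The shares in the comparisons with control rest on single arrays. The 2342 probe sets called at week 6 became 3 without control replicate 1, 1 without control replicate 3, 57, 1 and 3 without week 6 replicates 1, 2 and 3, and 1377 without week 29 replicate 2. The 2455 called at week 15 became 881 and 927 without control replicates 2 and 3, and 1015 without week 15 replicate 3. The 4705 called at week 29 became 689 and 976 without control replicates 1 and 3, and 769 and 274 without week 29 replicates 2 and 3. Between weeks 29 and 6 limma called 0 of 4 genes and 0 of 31042 probe sets, with 3005 probe sets at an unadjusted p under 0.05. The comparisons with control share the same 3 control arrays, and the comparisons between weeks share arrays with them.

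The change of each cornification gene was set against that of Tgm2 by the difference of their log2 signals within an array, which does not depend on how arrays are scaled. Relative to Tgm2, Tgm1 was at -0.96 at week 6, 1.40 at week 15 and -1.62 at week 29. Tgm3 was at -0.11, 1.60 and -0.21, and Asprv1 at -0.08, 1.74 and -0.55. In an exact two-sided permutation test, 3 arrays against 3 cannot give a p below 0.1. This smallest value was reached by Tgm1 at weeks 6 and 29, by Tgm3 and Asprv1 at week 15, by Tgm1 from week 6 to week 29 (-0.66), and by all 3 genes from week 6 to week 15 (2.36, 1.71 and 1.82) and from week 15 to week 29 (-3.02, -1.81 and -2.29). After adjustment over the 18 such tests these p-values were 0.164. Tgm1 at week 15 had an exact p of 0.2, since week 15 replicate 1 overlapped with control replicate 2, and for Tgm3 at weeks 6 and 29 and Asprv1 at week 6 the exact p was 0.6. With the other Tgm2 probe set the Tgm3 difference was -0.41 at week 6 and -0.57 at week 29, and the Asprv1 difference -0.38 and -0.91.

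**Figure D3:**
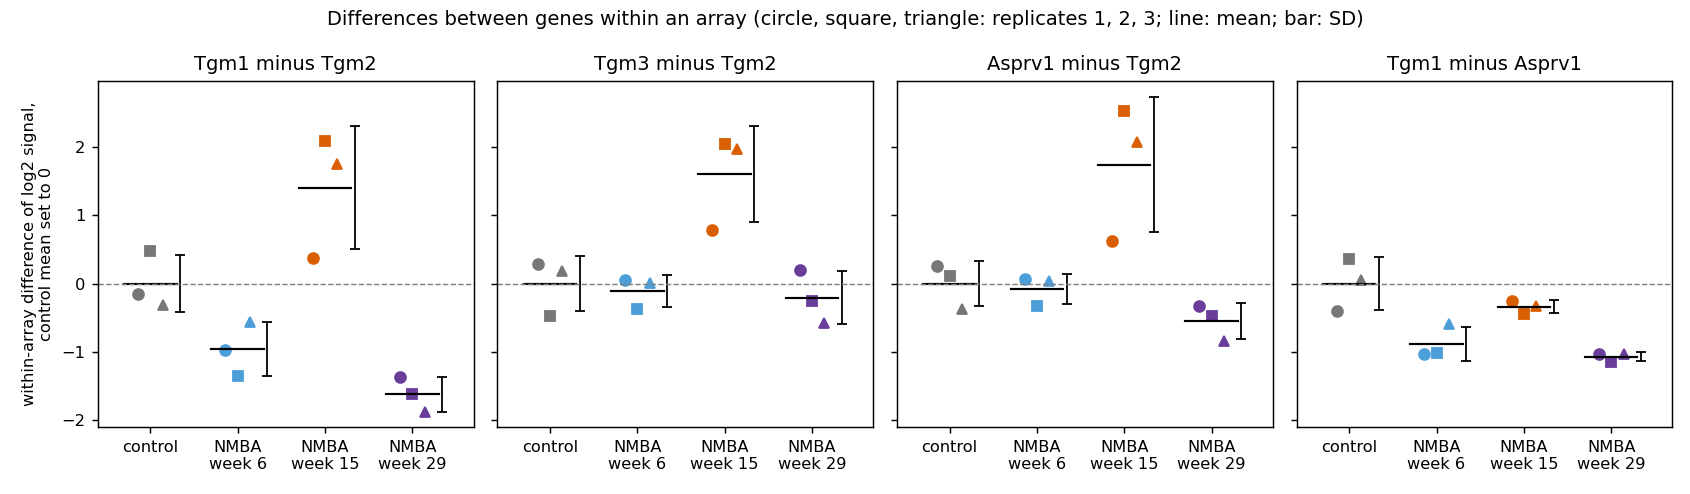
Difference of log2 signal within an array (vertical axis, mean of controls set to 0) for Tgm1, Tgm3 and Asprv1 minus the main Tgm2 probe set, and for Tgm1 minus Asprv1, by group, with the mean and 1 SD. Week 15 arrays lay above the controls for Tgm3 and Asprv1, and Tgm1 lay below the controls at weeks 6 and 29 against both Tgm2 and Asprv1.

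Differences among the 3 cornification genes within an array were compared after their values were seen, and none passed after adjustment. Tgm1 minus Asprv1 was lower than in controls by a mean log2 difference of -0.88 at week 6 and of -1.07 at week 29, with groups that did not overlap, and by -0.34 at week 15, where they did. Tgm1 minus Tgm3 moved by -0.85, -0.20 and -1.41 at weeks 6, 15 and 29, and groups overlapped with controls only at week 15. Tgm3 minus Asprv1 moved by -0.03, -0.14 and 0.34, within the control SD of 0.57 each time. Between weeks, Tgm3 minus Asprv1 was at 0.48 from week 15 to week 29 and at 0.37 from week 6 to week 29, with groups that did not overlap. Groups also did not overlap for Tgm1 minus Tgm3 from week 6 to 15 (0.66), week 15 to 29 (-1.21) and week 6 to 29 (-0.56). The same held for Tgm1 minus Asprv1 from week 6 to 15 (0.54) and week 15 to 29 (-0.73), but not from week 6 to 29 (-0.19). For each of these differences without overlap, between weeks or against control, the exact permutation p was 0.1, the smallest the design allows. After adjustment over 18 tests it was 0.164.

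Skeletal muscle signal was strong on every array, although muscle had been stripped. The score, the mean log2 signal of 29 muscle markers, ran from 11.84 to 12.27 in controls, 12.53 to 12.68 at week 6, 10.26 to 11.79 at week 15 and 12.31 to 12.55 at week 29. Against control, none of the 29 markers was called at week 6 or week 29, and 4 were lower at week 15 (8.38% of all genes). From week 6 to week 15, 27 of the 29 were lower (21.2% of all genes), at a median log2 change of -1.36. From week 15 to week 29, 24 were higher (21.1% of all genes), at a median of 1.46. Acta1, skeletal muscle actin, had signals from 14.03 to 14.71, and Krt14, the basal keratin, from 11.94 to 13.97. The 3′ minus 5′ difference of the GAPDH control probe sets, which grows as RNA degrades, was 0.40 ± 0.16 in controls (SD, n = 3) and 0.40 ± 0.19 at week 15, against 0.11 ± 0.04 at week 6 and 0.17 ± 0.04 at week 29. In tissue RNA, fewer cells of a type and less RNA per cell cannot be told apart.

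At week 15, where the means of the 3 cornification genes were highest, the muscle scores were lowest, and at weeks 6 and 29 the muscle scores lay above every control. The suprabasal score had the same order of group means as the 3 genes. This score, the mean of 7 markers such as Krt4 and Krt13, ran from 11.54 to 11.82 in controls, 10.71 to 11.08 at week 6, 11.69 to 12.13 at week 15 and 10.37 to 11.30 at week 29. Against control, 1 of these 7 was called lower at week 6 and 5 of 7 at week 29, while 0 were called at week 15. All 7 were higher from week 6 to week 15 (22.7% of all genes) and all 7 lower from week 15 to week 29 (22.4%). Of 11 basal keratinocyte markers, 3 were lower at week 6, 1 at week 15 and 6 at week 29. Over all genes, 3.76%, 8.38% and 10.8% were lower at these weeks, so that 1 of 11 at week 15 is near the share of all genes. From week 6 to week 15, 10 of the 11 basal markers were higher and 1 lower (22.7% and 21.2% of all genes). From week 15 to week 29, 10 were lower and 1 higher (22.4% and 21.1% of all genes).

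Relative to the suprabasal score of the same array, and with the control mean set to 0, Tgm1 lay at -0.60 ± 0.35 (SD, n = 3) at week 6, 0.56 ± 0.55 at week 15 and -1.19 ± 0.30 at week 29. All 3 week 29 arrays, at -1.53 to -0.99, lay below the controls, at -0.19 to 0.31. Tgm3 lay at 0.25 ± 0.11, 0.76 ± 0.34 and 0.23 ± 0.17, against a control SD of 0.55. Asprv1 lay at 0.28 ± 0.11, 0.90 ± 0.65 and -0.11 ± 0.34, against a control SD of 0.27. On this scale the week 29 means of Tgm3 and Asprv1 were thus within 1 control SD of 0, and that of Tgm1 was not.

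With the muscle score as a covariate, Tgm1 was at -1.28 ± 0.37 at week 6 and no longer called (adjusted p = 0.103), and its week 29 call was kept. With the basal keratinocyte score as a covariate, Tgm1 was at -2.23 ± 0.51 at week 29 and not called (adjusted p = 0.308), in a fit that called 5 of 31042 probe sets. With the GAPDH difference as a covariate Tgm1 was at -2.11 ± 0.31 at week 6 (adjusted p = 0.0599), where 8 probe sets were called in all. The scores and the GAPDH difference varied with the groups, so these fits cannot separate them from the group. The part of tissue makeup and RNA quality in the differences of these genes was not tested.

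**Figure D4:**
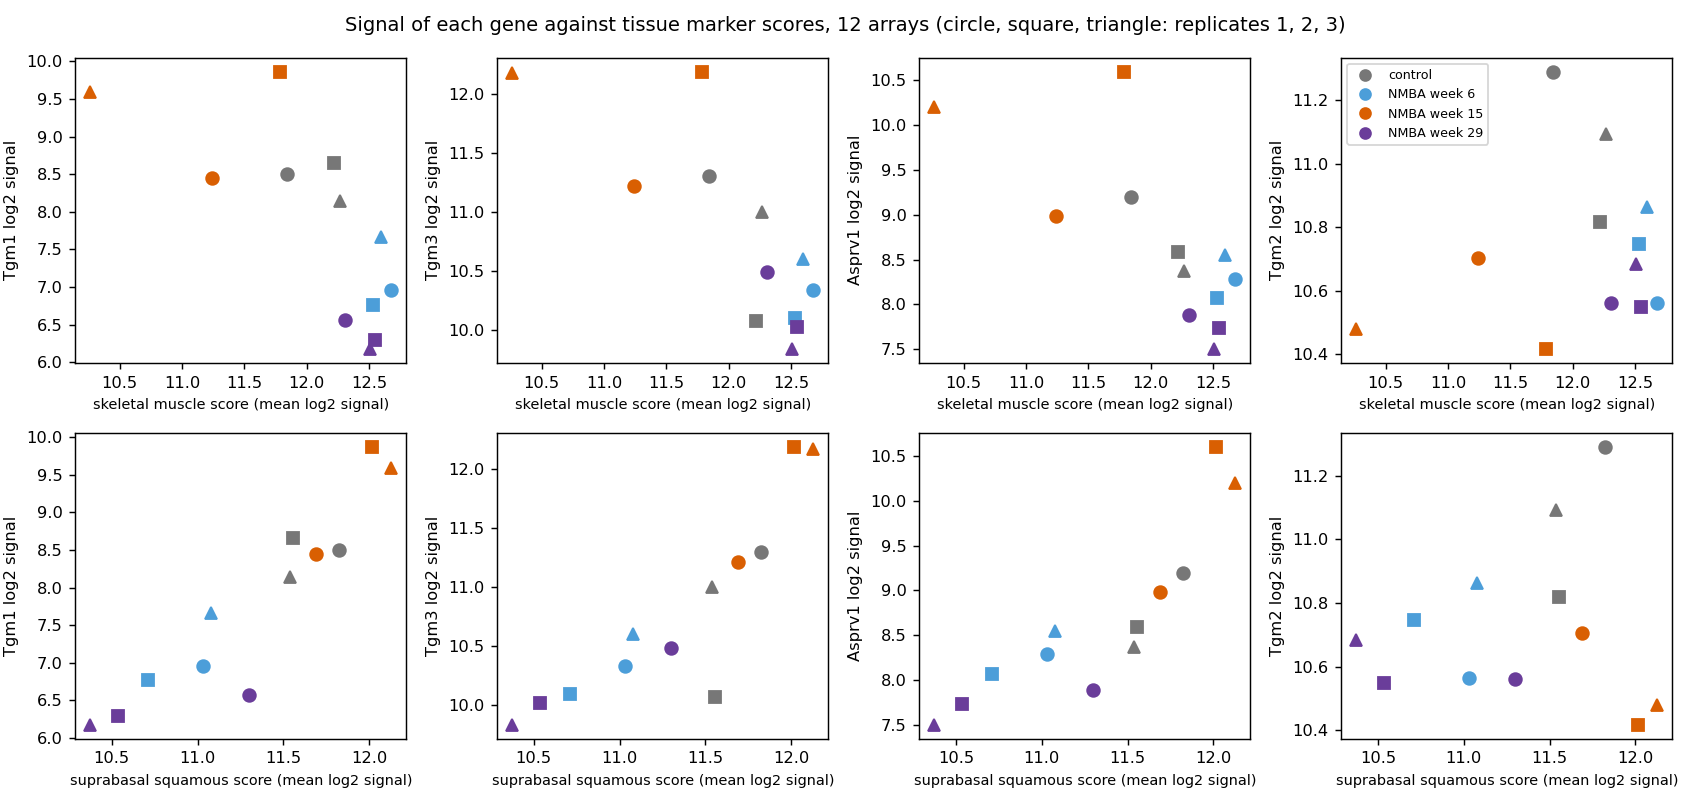
Log2 signal of each gene (vertical axes) against the skeletal muscle score (upper row) and the suprabasal squamous score (lower row) of the same array, for 12 arrays coloured by group. The 3 week 15 arrays had the lowest muscle scores, 10.26 to 11.79, and 2 of them the highest suprabasal scores and the highest Tgm1, Tgm3 and Asprv1 signals.

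Tgm2 was set beside markers of the cells in which it is known. Of 11 endothelial markers, 4 were lower at week 6, 4 at week 15 and 8 at week 29, and the endothelial score ran from 8.60 to 8.91 in controls, 8.32 to 8.34, 8.28 to 8.64 and 7.98 to 8.25 in the NMBA weeks. Relative to that score Tgm2 was at 0.12 ± 0.14, -0.18 ± 0.09 and 0.16 ± 0.13 at weeks 6, 15 and 29 (SD, n = 3), against a control SD of 0.09. Of 11 fibroblast markers, 0 were called at week 6, 9 were lower at week 15 and 3 at week 29, with scores of 10.08 to 10.87 in controls and 9.31 to 9.73 at week 15. Relative to the fibroblast score Tgm2 was at -0.05 ± 0.10, 0.48 ± 0.11 and -0.06 ± 0.30. Of 8 smooth muscle markers 0, 2 and 4 were lower and 0, 0 and 1 higher at weeks 6, 15 and 29, and of 10 macrophage markers 1 was lower, at week 29. Over all genes, 3.76%, 8.38% and 10.8% were lower at weeks 6, 15 and 29, and 8.44% were higher at week 29. The macrophage count and the count of 1 smooth muscle marker called higher are near these shares. The part of these cells in the Tgm2 difference was not tested.

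The proteins that Tgm1 and Tgm3 crosslink were described through a list of 27 symbols of envelope proteins, of which 17 were measured. At week 6, 6 of 17 fell (3.76% of all genes did), among them Anxa1, annexin A1, by 1.21 and Scel, sciellin, by 0.98, and the list median was -0.79 against -0.03 over all genes. At week 15, 2 of 17 rose (1.54% of all genes), Sprr2d by 1.39 and the corneodesmosin gene Cdsn by 1.25, at a median of 0.45. At week 29, 14 of 17 fell (10.8% of all genes), led by the small proline-rich genes Sprr3 (log2 fold change -2.68) and Sprr1a (-2.62), at a median of -1.01. From week 6 to week 15, 16 of 17 rose (22.7% of genes) and from week 15 to week 29, 16 of 17 fell (22.4%). When 1 array was left out at a time, the week 6 count ranged from 0 to 10, the week 15 count from 1 to 5 and the week 29 count from 4 to 16, while both counts between weeks stayed at 16. Without the 3 week 15 arrays, a choice made after the values were seen, 12 of 17 were lower at week 6 and 16 at week 29. The share of all genes called in that fit was not computed, so these counts cannot be set against it. Ivl, involucrin, a classical substrate of Tgm1, was at -0.13, -0.02 and -0.06 and did not pass, with group means of 2.99 to 3.12, near the lowest signal of the table (2.49).

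Among 15 measured proteases of keratinocyte differentiation, 3 fell at week 6 (3.76% of all genes), with Klk10 at -1.20 and Klk8 at -0.94, both kallikreins. At week 15, 2 rose (1.54% of all genes), Prss8, prostasin, by 0.64 and the kallikrein Klk6 by 0.37, and at week 29, 3 fell (10.8% of all genes), with Klk8 at -1.49 and Klk10 at -1.09. When 1 array was left out at a time, these counts ranged from 0 to 3, 0 to 4 and 2 to 5. Asprv1, at 1.21 in the week 15 comparison with control, lay above the highest of these 15, which was 0.64. From week 6 to week 15, 8 of the 15 rose (22.7% of all genes), and the highest, at 1.79, lay above Asprv1 at 1.63. From week 15 to week 29, 7 fell (22.4% of all genes), the lowest at -2.08, against -2.22 for Asprv1. All 6 measured protease inhibitors fell at week 29 (10.8% of all genes), with Spink5, the inhibitor LEKTI, at -1.56 and Serpinb2 at -1.49. At week 6, 3 of the 6 fell (3.76% of all genes), Serpinb2 (-1.41) and the Kunitz inhibitor Spint1 (-0.90) the most. At week 15, 2 of the 6 rose (1.54% of all genes), Slpi by 1.55 and Spink5 by 0.86. All 6 rose from week 6 to week 15 (22.7% of all genes) and all 6 fell from week 15 to week 29 (22.4%). The inhibitor counts ranged from 0 to 5 at week 6, 1 to 3 at week 15 and 2 to 6 at week 29 when 1 array was left out. Both counts between weeks stayed at 6.

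Of 19 regulators of differentiation, 3 fell and 1 rose at week 6, where 3.76% of all genes fell and 5.07% rose. At week 15, 3 rose (1.54% of all genes), and at week 29, 6 fell and 1 rose, where 10.8% of all genes fell and 8.44% rose. When 1 array was left out, the falls numbered 0 to 5 at week 6 and 0 to 9 at week 29, and the rises at week 15 numbered 0 to 5. Hopx, a homeodomain protein, fell by 1.12 at week 6 and by 1.51 at week 29, Grhl1, a Grainyhead-like factor, fell by 0.82 at week 6, and the receptor gene Notch1 fell by 1.22 at week 29. Ehf and Cebpa, transcription factor genes, rose by 0.84 and 0.58 at week 15. Jun, a part of AP-1, rose by 0.77 and 0.49 at weeks 6 and 29. From week 6 to week 15, 14 of the 19 rose and 1 fell, where 22.7% of all genes rose and 21.2% fell. Among these rises were Grhl3 (1.65) and Grhl1 (1.42). From week 15 to week 29, 15 fell and 1 rose, where 22.4% of all genes fell and 21.1% rose.

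Of the other genes of the transglutaminase family, 4 were measured. Of these, Tgm5, a keratinocyte transglutaminase with group means between 3.86 and 4.41, fell by 0.55 at week 6 and rose by 0.46 from week 6 to week 15, and F13a1, the A chain of coagulation factor XIII, fell by 0.95 from week 6 to week 15. No other difference of these 4 with control was called, and their medians lay at -0.03 in each comparison with control. Over all genes, 3.76% fell at week 6, and 22.7% rose and 21.2% fell from week 6 to week 15. Among 4 envelope lipid enzymes, Pnpla1 rose by 0.37 at week 15, and the lipoxygenase Aloxe3 rose by 1.73 from week 6 to week 15 and fell by 1.82 from week 15 to week 29. Smpd1, acid sphingomyelinase, was called the other way, with a fall of 0.50 and then a rise of 0.52. In all, 2 of these 4 rose and 1 fell from week 6 to week 15. From week 15 to week 29, 2 fell and 1 rose (22.4% and 21.1% of all genes). At week 15, 1.54% of all genes rose against control. Of 14 matrix partners of Tgm2, 1 fell at week 6 (Adgrg1, an adhesion receptor, by 0.49, when 3.76% of all genes fell). At week 15, 2 fell (the basement membrane gene Nid1 by 1.22 and the integrin Itgb3 by 0.74, when 8.38% of all genes fell). At week 29, 4 fell (among them the galectin Lgals3 by 0.90 and Itgb3 by 0.87, when 10.8% of all genes fell). These counts ranged from 0 to 2, 1 to 3 and 0 to 4 when 1 array was left out. Between weeks the matrix partners were called in both directions. From week 6 to week 15, 4 rose and 3 fell (22.7% and 21.2% of all genes). From week 15 to week 29, 2 rose and 3 fell (21.1% and 22.4% of all genes). Fn1, fibronectin, was at -0.60 at week 15 and did not pass.

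**Figure D5:**
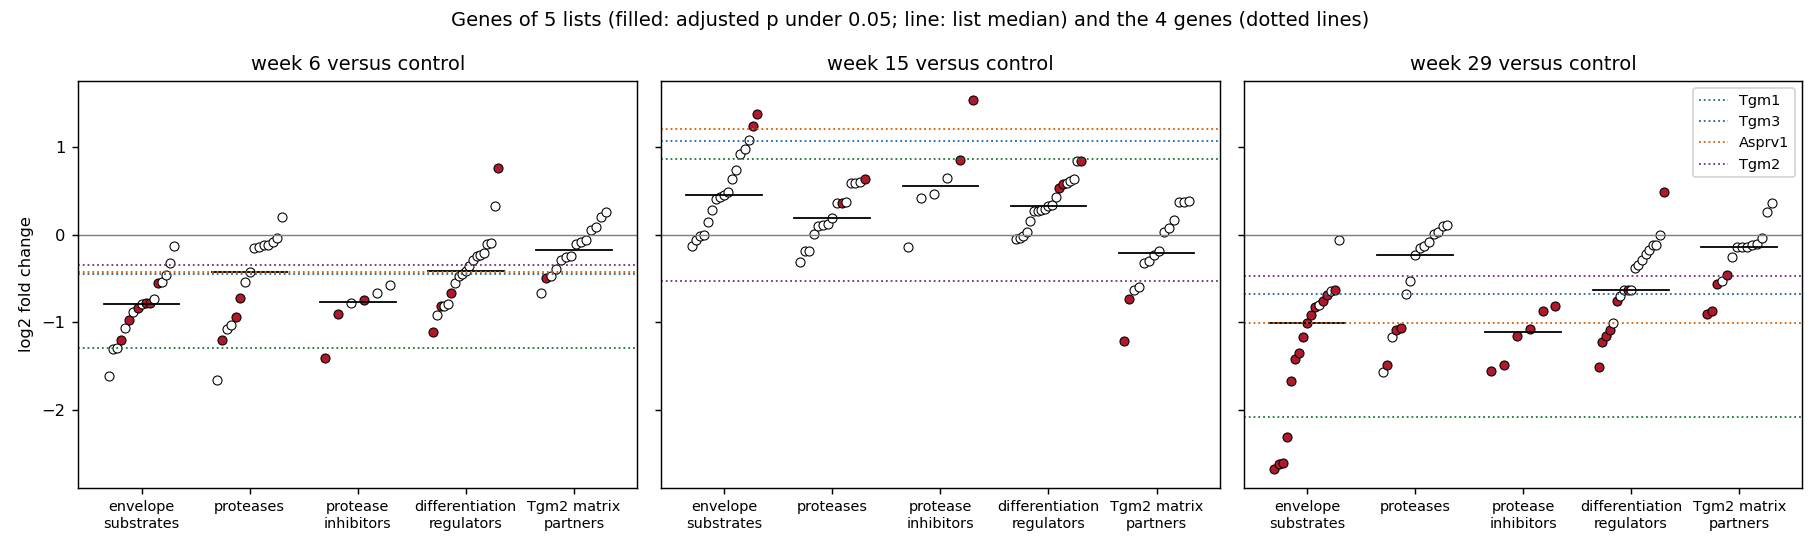
Log2 fold change from control (vertical axis) of the measured genes of 5 lists at weeks 6, 15 and 29, filled where the adjusted p was under 0.05, with list medians as lines and the 4 genes as dotted lines. The list of envelope substrates had medians of -0.79, 0.45 and -1.01, and Tgm1 lay below this median at weeks 6 and 29 and above it at week 15.

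Genes whose log2 signal was most like that of each member were ranked by Pearson r over the 12 arrays, among 13982 other genes, as a description that rests on 4 groups and shared tissue. For Tgm1 these were Serpinb11 (r = 0.99), a serpin, Sprr3 (0.98), C18h5orf46 (0.98), Ly6g6c (0.98) and Cnfn, cornifelin (0.98). For Tgm3 they were Gdpd3 (0.98), Rpl7l1 (0.98), Acat2 (0.98), Smagp (0.98) and Acer1, an alkaline ceramidase (0.98). For Asprv1 they were Trex2, an exonuclease (0.98), Fcho1 (0.97), Degs2, a sphingolipid desaturase and hydroxylase (0.97), Fam25a (0.97) and Icmt (0.97). For Tgm2 they were Fkbp10 (0.93), a collagen-folding protein, Fam171b (0.93), Ldb2 (0.91), Sparc (0.90), a matrix protein, and Col6a2 (0.90), a collagen VI chain. No gene was among the 5 closest to more than 1 member.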

How the data were processed

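RNA of 12 rat esophagus samples was measured on an Affymetrix expression array. The deposited table holds log2 signals of 31099 probe sets, which the authors made in Affymetrix Expression Console, as the submitters' processing notes state. No source used here gives its method of summarization, its version or any filter, and the log2 scale was read from the values (2.49 to 14.71). Array medians lay between 6.42 and 6.49, values were used as deposited, and no 2 arrays were identical (7 to 47 equal values in a pair). Scanner files were not used here, which leaves brightness over background unknown, and precision is limited by how many arrays there were.

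After 57 array controls were left out, 31042 probe sets were fitted with limma 3.58.1 in R 4.3.3 (lmFit, eBayes, 4 groups, 12 arrays, 8 residual degrees of freedom). Tests were two-sided, adjustment of p-values was that of Benjamini and Hochberg over all 31042, and a call is an adjusted p under 0.05. In the platform annotation 20826 probe sets had 1 symbol, 436 had several and 9780 were not listed. The probe set with the highest mean stood for a gene. The fit was tested on simulated data. Within-array differences between 2 genes were compared between groups with exact permutation tests. The members and lists were chosen with earlier results of these data known. All 5 member probe sets are named, as are up to 2 called rises and 2 called falls per list and comparison (a selection of these for the comparisons between weeks), the 5 genes most like each member, and Acta1 and Krt14. Krt4, Krt13, Ivl and Fn1 are named outside that rule. Same-numbered replicates were checked for pairing: of 18 pairs, the correlations of deviations from group means lay between -0.41 and 0.29, so the numbers were not treated as pairs. Alternatives were array-median scaling, a filter on dim probe sets, fits with the replicate number, a marker score or the GAPDH difference as a covariate, only the arrays compared, the other Tgm2 probe set and leaving out arrays.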

Additional observations from a re-analysis of the deposited data

Results flagged for a closer look

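For 6 differences the test between 2 NMBA weeks passed in limma, so that the change from control, with the same controls, differed between the weeks. Between weeks 6 and 15 the log2 change of Tgm1 differed by 2.17 ± 0.32 (SE, 3 arrays per group, adjusted p = 0.000353), that of Tgm3 by 1.52 ± 0.32 (adjusted p = 0.00316) and that of Asprv1 by 1.63 ± 0.34 (adjusted p = 0.00271). Between weeks 15 and 29 the log2 differences were -2.96 ± 0.32 for Tgm1 (adjusted p = 7.02e-05), -1.74 ± 0.32 for Tgm3 (adjusted p = 0.00119) and -2.22 ± 0.34 for Asprv1 (adjusted p = 0.000351). All 3 arrays of week 15 lay above all 3 arrays of the other week in each case. These 6 differences were picked because they passed, so this separation adds no support. The share of all probe sets with such separation was not counted. Week 15 replicate 1 was the lowest of its group for all 3 genes, and its suprabasal score of 11.69 was also the lowest of that group, while its muscle score of 11.24 lay between the other 2. Groups of 3 were not tested for outlying samples.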

How the results depend on the processing

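Leaving out any 1 of the 12 arrays kept the week 29 call of Tgm1 and all 6 calls of Tgm1, Tgm3 and Asprv1 between weeks 6 and 15 and between weeks 15 and 29. The comparisons with control were less stable. Their log2 ranges were -1.57 to -1.12 for Tgm1, -0.81 to -0.19 for Tgm3, -0.59 to -0.18 for Asprv1 and -0.47 to -0.23 for Tgm2 at week 6, 0.59 to 1.30 for Tgm1, 0.71 to 1.39 for Tgm3, 0.87 to 1.68 for Asprv1 and -0.66 to -0.42 for Tgm2 at week 15, and -1.03 to -0.42 for Tgm3, -1.19 to -0.78 for Asprv1 and -0.59 to -0.36 for Tgm2 at week 29. The adjusted p of the 4-group test of Tgm2 ranged from 0.00793 to 0.0922. Relative to Tgm2, the week 6 difference ranged from -0.34 to 0.04 for Tgm3, turning positive without control replicate 1 (0.037) or week 6 replicate 2 (0.030), and from -0.26 to 0.05 for Asprv1, turning positive without the same arrays (0.049 and 0.050). The difference of Tgm3 between weeks 29 and 6 ranged from -0.31 to 0.08, positive without week 29 replicate 3 (0.080).

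With the skeletal muscle score as a covariate these were no longer called, by log2 difference: Tgm1 at week 6 (-1.28), Asprv1 (1.12) and Tgm2 (-0.61) at week 15, Tgm2 at week 29 (-0.44), Tgm1 (2.11), Tgm3 (1.10) and Asprv1 (1.50) between weeks 6 and 15, and Tgm3 (-1.37) and Asprv1 (-2.10) between weeks 15 and 29. The adjusted p of the 4-group test was 0.05002 for Tgm1, 0.330 for Tgm3, 0.136 for Asprv1 and 0.0903 for Tgm2. With the basal keratinocyte score it was 0.105, 0.340, 0.196 and 0.149, and no call of these genes was kept: Tgm1 at week 6 (-1.42) and week 29 (-2.23), Asprv1 (1.22) and Tgm2 (-0.53) at week 15, Tgm2 at week 29 (-0.46), Tgm1 (2.34), Tgm3 (1.18) and Asprv1 (1.66) between weeks 6 and 15, and Tgm1 (-3.15), Tgm3 (-1.38) and Asprv1 (-2.25) between weeks 15 and 29. No sign changed under either covariate. Both scores varied with the groups, which widened the SE. For Tgm1 at week 29 it was 0.51 with the basal score against 0.32 without, and between weeks 6 and 15 it was 0.58 against 0.32. These fits cannot separate the score from the group, so a lost call does not show the part of tissue makeup, which was not tested. With the GAPDH difference as a covariate Tgm1 at week 6 (-2.11) and Tgm2 at week 29 (-0.25) were not called and Tgm1 at week 15 (0.88) was. Asprv1 moved to -1.01 and Tgm2 to -0.07 at week 6, and Tgm2 to -0.47 between weeks 6 and 15, and none of these was called. The cause was not tested.

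Asprv1 at week 15 was not called after each array's median was subtracted (1.19), with the replicate number as a block (1.21), which changed no other call of these genes, or with only the 6 arrays compared (1.21). With only those arrays Tgm2 at week 15 (-0.53) was not called and Asprv1 at week 29 (-1.01) was. With dim probe sets left out, which tests fewer, Tgm3 at week 15 (1.07) and Asprv1 at week 29 (-1.01) were called. By the other Tgm2 probe set the week 15 (-0.24) and week 29 (-0.11) calls were lost. Apart from left-out arrays, 176 of these results were counted as unchanged, 36 lost a call and 4 gained one. The unchanged ones include comparisons that were not called to begin with. For the differences relative to Tgm2, unchanged means the same sign only, since their exact p cannot fall below 0.1. For all others it means the same side of the threshold, and the same direction where there is one.

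Counts over all probe sets moved far more. With the muscle score the 2342, 2455 and 4705 calls at weeks 6, 15 and 29 became 44, 0 (4534 at an unadjusted p under 0.05) and 2779, and with the basal keratinocyte score they became 0 (2721 unadjusted), 964 and 5. With the GAPDH difference they became 8, 2612 and 132. Without 1 array they ranged from 1 to 3454, 881 to 3057 and 274 to 6120. The number of arrays, 3 per group, limits every difference with control.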
